A study of Drosophila melanogaster with 3 samples.

Results

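Binding sites of CG10209 in introns were described in whole Drosophila melanogaster embryos by chromatin immunoprecipitation followed by sequencing (ChIP-seq). The authors' final list held 6307 peaks, chosen by irreproducible discovery rate (IDR), a method that keeps regions whose ranks recur from replicate to replicate. Of these, 1228 (19.5%) had their summit 1001 to 5000 bp from the nearest annotated transcript start, inside an annotated gene and in no annotated exon, with transposable elements left out of the annotation. Position alone chose these peaks, and signal values played no part. The embryos came from 1 transgenic line that carries CG10209 fused at its C-terminal end to green fluorescent protein (GFP), and chromatin was precipitated with an antibody to GFP. All embryos were 0 to 24 h old and of both sexes, and the line gave 1 group of 3 biological replicates with no second condition. No mock precipitation or untagged line was used here, so every value below belongs to the tagged line, and the reference for the intronic peaks is other peaks and other sequence of the same genome. Whole embryos of that age mix all tissues and stages, and a site occupied strongly in few cells cannot be told apart from a site occupied weakly in many. The region lists hold no expression values, so the labelled stage could not be checked against marker genes. CG10209 itself hosted 0 of the intronic peaks, and 0 lay within 20 kb of it.

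Introns of Drosophila genes hold many of the enhancers that set where and when a gene is transcribed, above all the long introns near the 5′ end of developmental regulators. They also hold insulators, alternative starts of transcription and whole smaller genes. A transcription factor or chromatin protein that binds there may act on the gene around it or on a neighbour, and a list of bound regions does not tell these cases apart.

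The sequences below show what recurred at these summits, and they were read from Release 6 of the genome in RefSeq. Each runs 5′ to 3′ with the summit as its middle base. The first set shows TATAAA, or TTTATA as it reads on the other strand, in capitals at 4 of the highest intronic peaks. Of the 24 motifs searched, this one was the most in excess over flanking sequence, but its letters in reverse order had a larger excess.
ush, chr2L:481011-481111, dm6, plus strand: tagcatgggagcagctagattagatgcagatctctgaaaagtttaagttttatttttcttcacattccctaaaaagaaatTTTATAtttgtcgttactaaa
Trl, chr3L:14759464-14759564, dm6, plus strand: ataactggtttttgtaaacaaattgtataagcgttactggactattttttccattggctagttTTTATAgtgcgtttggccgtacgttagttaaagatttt
CG32772, chrX:4910314-4910414, dm6, plus strand: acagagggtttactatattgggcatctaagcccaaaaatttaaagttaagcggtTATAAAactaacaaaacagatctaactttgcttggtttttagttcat
CG9837, chr3R:8811634-8811734, dm6, plus strand: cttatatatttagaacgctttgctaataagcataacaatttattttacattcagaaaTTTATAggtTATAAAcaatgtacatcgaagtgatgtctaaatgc

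The next set shows words that hold the 5 bases CACTG, or CAGTG on the other strand, and was chosen after the values had been seen. The capitals mark CACTGAGA at ImpL2, mew and RhoGAP18B, and CACTGTGC, or GCACAGTG on the other strand, at Csk, Hel89B and Sema1a. In ImpL2 and mew the word begins 73 and 51 bp before the summit and reads towards it. In RhoGAP18B, shown as an exception, it begins 90 bp after the summit and reads away from it. In Csk and Hel89B the word begins 78 and 71 bp after the summit and reads away from it, and Sema1a has a copy on either side, each reading away.
ImpL2, chr3L:4228279-4228479, dm6, plus strand: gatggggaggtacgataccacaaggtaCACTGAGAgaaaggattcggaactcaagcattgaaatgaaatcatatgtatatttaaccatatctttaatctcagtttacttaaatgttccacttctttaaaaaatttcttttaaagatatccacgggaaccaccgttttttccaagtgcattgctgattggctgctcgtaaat
mew, chrX:13234194-13234394, dm6, plus strand: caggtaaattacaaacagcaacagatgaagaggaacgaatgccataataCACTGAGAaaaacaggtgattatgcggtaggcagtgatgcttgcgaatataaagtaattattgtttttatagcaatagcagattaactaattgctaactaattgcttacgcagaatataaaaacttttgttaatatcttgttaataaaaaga
RhoGAP18B, chrX:19155089-19155289, dm6, plus strand: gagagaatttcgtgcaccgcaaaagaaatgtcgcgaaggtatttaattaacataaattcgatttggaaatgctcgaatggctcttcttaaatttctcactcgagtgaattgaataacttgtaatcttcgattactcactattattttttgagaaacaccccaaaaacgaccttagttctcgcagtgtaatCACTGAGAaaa
Csk, chr3R:11649549-11649749, dm6, plus strand: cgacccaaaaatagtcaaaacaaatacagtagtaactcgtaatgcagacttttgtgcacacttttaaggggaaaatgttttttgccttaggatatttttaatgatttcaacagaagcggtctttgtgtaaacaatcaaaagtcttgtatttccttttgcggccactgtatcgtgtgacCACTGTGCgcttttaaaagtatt
Hel89B, chr3R:15974354-15974554, dm6, plus strand: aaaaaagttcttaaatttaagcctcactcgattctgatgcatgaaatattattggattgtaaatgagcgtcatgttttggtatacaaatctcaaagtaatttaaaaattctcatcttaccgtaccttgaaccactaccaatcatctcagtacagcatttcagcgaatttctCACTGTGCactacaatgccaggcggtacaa
Sema1a, chr2L:8575062-8575262, dm6, plus strand: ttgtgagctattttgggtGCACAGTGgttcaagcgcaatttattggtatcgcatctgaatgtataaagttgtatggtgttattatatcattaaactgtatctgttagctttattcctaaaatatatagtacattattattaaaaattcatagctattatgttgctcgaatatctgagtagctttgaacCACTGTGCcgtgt

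Peaks were denser in introns at this distance than deeper in introns. There were 60.9 peaks per Mb of such sequence (exact Poisson 95% interval 57.5 to 64.4, over 20.2 Mb), against 27.2 per Mb (25.4 to 29.2) in introns more than 5 kb from a start and 21.8 per Mb (20.3 to 23.4) in intergenic sequence more than 1 kb from a start. The ratio to the deeper introns was 2.24, and the intervals did not overlap; the difference was not tested. Exons at more than 1 kb had 5.62 per Mb. The zone 501 to 1000 bp from a start had 51.3 per Mb, and promoters, within 500 bp of a start, had 148 per Mb. That zone and the promoters take in exons, introns and intergenic sequence together, so their densities are not per Mb of intron. Within the intronic class, density was highest next to the lower limit, at 79.5 per Mb (70.7 to 89.0) from 1001 to 1500 bp. It was 67.9 per Mb (59.2 to 77.4) from 1501 to 2000 bp. From 2001 to 5000 bp the bins of 500 bp held 49.5 to 57.3 per Mb, with overlapping intervals. The authors' list of 30000 pooled regions, background included, held 6403 regions in this intronic sequence, of which 19.2% were IDR peaks, against 15.1% in deeper introns and 33.8% at promoters.

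**Figure D1:**
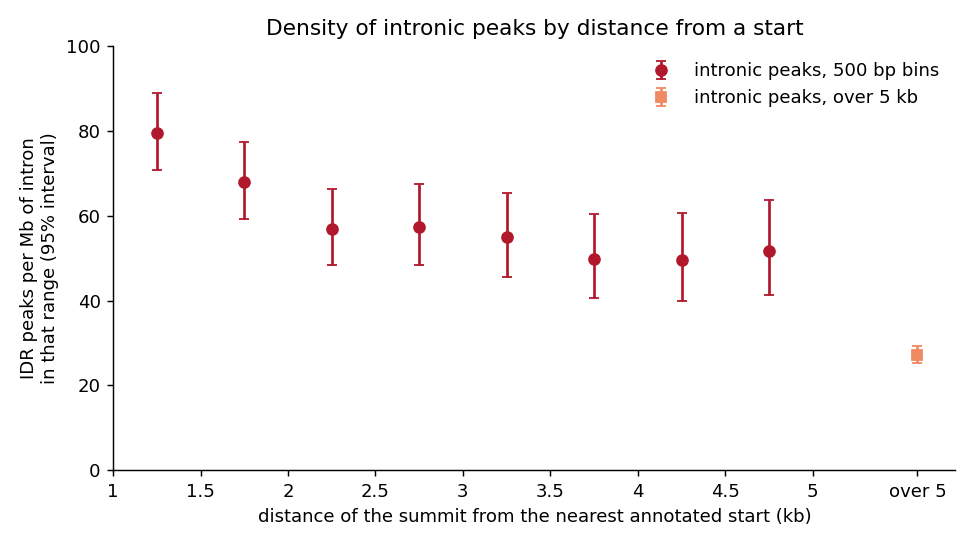
IDR peaks per Mb of intron (vertical axis, exact Poisson 95% intervals) by distance of the summit from the nearest start in kb (horizontal axis, bins of 500 bp), with introns more than 5 kb from a start as the last point. Density is 79.5 per Mb in the bin nearest the starts, 49.5 to 67.9 per Mb in the other bins and 27.2 per Mb beyond 5 kb.

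Peaks next to the 2 limits of distance had signal values that overlapped between the 2 sides, with the highest value of the peaks named inside each limit. Just inside the lower limit lay peaks in Tak1 (1001 bp from a start, signal value 278), Src64B (1005 bp, 317) and drongo (1007 bp, 465). Just outside it lay peaks in magu (999 bp, 325), CG5065 (999 bp, 212) and aop (997 bp, 302). Just inside the upper limit lay peaks in Ork1 (4996 bp, 197), CG46339 (4993 bp, 330) and NetB (4991 bp, 363), and just outside it Tis11 (5005 bp, 326), dachs (5010 bp, 236) and cv-c (5011 bp, 240).

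The intronic peaks were spread over the large chromosome arms. X had 68.3 per Mb of such intron (273 peaks, interval 60.4 to 76.9), 2R had 65.0 (230 peaks), 3R had 59.7 (273), 3L had 59.3 (244) and 2L had 57.0 (208, interval 49.5 to 65.3). The intervals of these arms overlapped. Chromosome 4 had 0 peaks in 0.260 Mb of such sequence, which allows up to 14.2 per Mb by the exact Poisson interval. Y had 0 peaks in 0.0438 Mb, too little sequence to set against the other arms.

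Most of these sites were in a gene's first intron. Of the 1228 peaks, 905 (73.7%, exact binomial 95% interval 71.1 to 76.1) lay in the first intron of an annotated transcript of the host, the gene around the summit, whereas first introns made up 54.8% of the sequence that could hold such a peak. The share was 84.7% from 1001 to 1500 bp and 51.2% from 4501 to 5000 bp. The 54.8% was taken over the whole range of distance, and the share of first introns in the sequence of each bin was not computed. Peaks were denser near starts, and the part of distance in this difference was not tested. A protein-coding gene was host to 1208 peaks, and 72 had more than 1 host. For 959 peaks (78.1%) the nearest start was the host's own. Of the other 269, 154 lay upstream of the nearest start, that of a different gene.

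A minority of the intronic peaks came with a peak at the nearest start. The nearest start had an IDR summit within 500 bp for 343 of the 1228 intronic peaks (27.9%, interval 25.4 to 30.5), against 21.7% (18.9 to 24.8) for intronic peaks beyond 5 kb and 16.8% (14.3 to 19.7) for intergenic peaks. Of all intronic sequence at this distance, 13.8% had such a peak at its nearest start, and 17.4% of all 23694 annotated starts had one. The share depended on how peaks were counted: it was 19.4% among the peaks in the upper 50% by signal and 17.8% with a start peak within 250 bp. The shares of the other classes, of the sequence and of all starts were not recomputed in these settings. They cannot be set against these values. Another IDR summit lay within 1 kb of 332 intronic peaks (27.0%) and within 5 kb of 919 (74.8%), so neighbouring peaks are not separate draws from the genome, and counting intervals are too narrow for that reason.

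The signal value, the authors' own score of a peak's height, spanned 194.7 to 6242 in the intronic peaks. Their median was 328 (quartiles 249 and 507), against 301 in introns beyond 5 kb, 309 in intergenic sequence, 346 at 501 to 1000 bp and 380 at promoters. A signal value of 1000 or more was reached by 74 intronic peaks (6.03%, interval 4.76 to 7.51), by 3.41% (2.26 to 4.92) in introns beyond 5 kb, by 3.86% (2.62 to 5.46) in intergenic sequence and by 12.8% (11.6 to 14.2) at promoters. Only the interval at promoters lay clear of that of the intronic peaks. Of the 20 highest IDR peaks 4 were intronic ones at this distance, and of the 631 highest 88 were (13.9%, 11.3 to 16.9), against 121 of the 631 lowest (19.2%, 16.2 to 22.5).

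**Figure D2:**
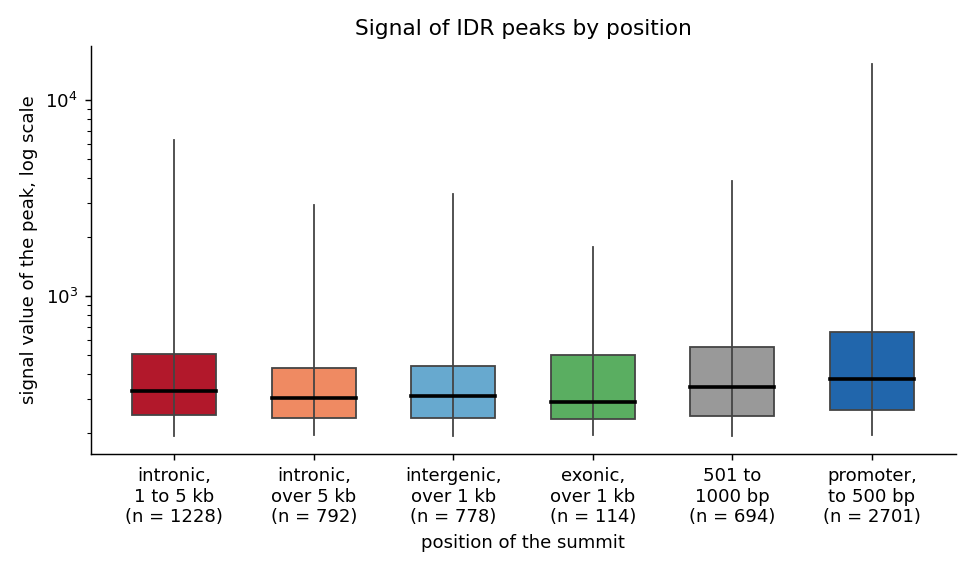
Signal values of IDR peaks (vertical axis, log scale) by position of the summit, with boxes from the lower to the upper quartile, a bar at the median and lines to the lowest and highest peak. Intronic peaks 1 to 5 kb from a start have a median of 328, against 301 in introns beyond 5 kb and 380 at promoters, and the boxes overlap widely.

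Each replicate's own region list recovered most of the intronic peaks. A peak was counted as recovered when 1 of the 6307 regions of highest signal in that replicate overlapped it by at least 1 bp. In replicate 1, 1049 intronic peaks were (85.4%, background over all IDR peaks 82.3%), in replicate 2, 1015 (82.7%, background 83.4%) and in replicate 3, 1124 (91.5%, background 90.9%). These shares were near the background, and the mean over replicates was 86.5% ± 4.54 for intronic peaks against 85.3% ± 4.81 for all other IDR peaks (SD, n = 3 each). The difference of 1.25 ± 2.46 percentage points did not pass an exact two-sided sign-flip permutation test (p = 0.75, where 0.25 is the smallest p that 3 replicates allow). It was higher in 2 of 3 replicates and was -0.0700 points without replicate 1. All 3 replicates recovered 836 intronic peaks (68.1%, 65.4 to 70.7), against 65.5% (64.2 to 66.8) of other IDR peaks, and 3 were recovered in none. The IDR peaks come from the pooled replicates, so these overlaps share reads and are no independent check.

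Promoter and distal peaks moved apart between replicates. In replicate 1 the intronic peaks stood at 85.4%, with 88.4% for introns beyond 5 kb, 89.6% for intergenic peaks and 76.4% for promoter peaks. In replicate 2 the intronic peaks stood at 82.7%, with 77.9%, 77.5% and 87.5% for those classes, so the order was turned round. In replicate 3 all 4 classes lay between 88.7% and 91.5%. Any region of replicate 1, background included, overlapped 94.1% of intronic peaks and 81.9% of promoter peaks. Regions with a −log10 q of at least 2 were fewest in replicate 1 (4296), against 9183 in replicate 2 and 9015 in replicate 3. In that replicate 69.3% of intronic peaks met such a region, against 93.0% in replicate 2 and 98.8% in replicate 3. The shares over all IDR peaks were 68.0%, 94.1% and 98.5% in replicates 1, 2 and 3, so the intronic peaks were near that background.

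**Figure D3:**
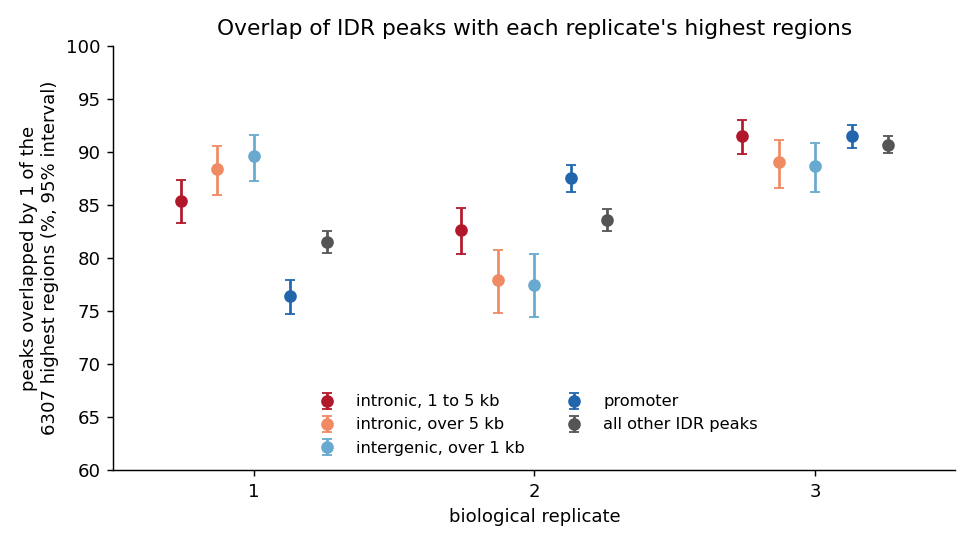
Share of IDR peaks overlapped by 1 of the 6307 highest regions of each biological replicate (vertical axis in percent, from 60, exact binomial 95% intervals) by class of position. Intronic peaks 1 to 5 kb from a start stand at 85.4%, 82.7% and 91.5% in replicates 1, 2 and 3, and promoter peaks at 76.4%, 87.5% and 91.5%.

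The intronic peaks ranked slightly lower in the replicates. Each peak took the rank of the highest region that overlapped it, and a peak without any region counted as the lowest rank. The median rank of intronic peaks, as a percentage of the 30000 regions of a list, was 10.6 ± 0.327 against 9.91 ± 0.186 for other IDR peaks (SD, n = 3 each). The difference of 0.680 ± 0.217 had the same direction in 3 of 3 replicates (exact sign-flip permutation, p = 0.25, the smallest possible). Promoter peaks had 8.47 and introns beyond 5 kb 12.1. Among overlapping regions alone, median ranks of intronic peaks were 2992, 3251 and 3080.5 in replicates 1, 2 and 3. Those of other IDR peaks were 2542.5, 2996 and 2947.5. Summits of replicate regions lay a median of 17, 15 and 9 bp from those of the intronic peaks in replicates 1, 2 and 3.

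The highest of these sites lay in ush, which encodes the zinc-finger cofactor U-shaped, a partner of GATA factors. Its peak (2L, 480571 to 481340, signal value 6242) lay in the first intron but 1373 bp from the start of cbt, a zinc-finger factor gene, which had a promoter peak. The region over it had a signal value of 2005 in replicate 1, 1675 in replicate 2 and 2557 in replicate 3, and ranked 4, 3 and 3. CG11050 had a peak of 5475 in an intron of 140 bp, the shortest host intron of the 20 highest peaks, which ranked 5 in all 3 replicates. Trl, which encodes GAGA factor, had a peak of 4352 that ranked 10, 17 and 9 in replicates 1, 2 and 3. CG32772 (3852) ranked 17, 27 and 16. All 4 peaks thus stayed among the 27 highest regions of each replicate.

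Several of the next sites lay in regulatory genes. Tlk, which encodes the Tousled-like kinase of chromatin assembly, had a peak of 3342 in its first intron, with ranks of 36, 26 and 28 in the 3 replicates. The trithorax group gene trx, a histone methyltransferase gene, had 2297, with ranks of 100, 70 and 83. The transcription factor gene NFAT had 2285, the junction protein gene cno 2197 and the kinase gene Raf 2094. In cno the rank was 191 in replicate 1, against 50 in replicate 2 and 88 in replicate 3. The other hosts among the 20 highest were CG12769 (2725), CG9837 (2403), CG3726 (2315), norpA (1879), simj (1872), Kdm2 (1821), for (1729), bmm (1721), Baldspot (1687), schlank (1568) and aos, whose peak of 1560 also lies in CG33158. Of these, norpA encodes a phospholipase of phototransduction, simj a subunit of the NuRD chromatin remodelling complex, Kdm2 a histone demethylase and for a protein kinase. Lipid enzymes are encoded by bmm (a lipase), Baldspot (a fatty acid elongase) and schlank (a ceramide synthase), and aos encodes a secreted inhibitor of the EGF receptor.

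Some genes held many of these sites. The most lay in shn, which encodes the zinc-finger protein Schnurri of BMP signalling. It had 13, with signal values from 244 to 1134 over its long introns, and its highest peak ranked 508, 445 and 397 in replicates 1, 2 and 3. CG1677 had 10 (highest 1208), all of them also inside lncRNA:CR44357, which had 11. There were 8 each in ush, Tlk and CHES-1-like, the last a forkhead factor gene with a highest signal value of 1318. In px, a gene named for its wing vein phenotype, there were 7, and CG32264, kirre, tna and pnt had 6 each. These genes have much sequence at the right distance: 30259 bp in shn, 50703 bp in CG1677 and 10990 bp in CHES-1-like. In ush, peaks of 814 and 225 had summits at 481954 and 482153 and met the same region in each replicate, so a count of peaks in 1 gene can exceed the number of separate sites.

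Over all genes, 747 of the 6861 protein-coding genes with any intronic sequence at this distance hosted a peak (10.9%). The share followed how much such sequence a gene has. It was 0.621% for genes with less than 1000 bp, 10.6% from 1000 to 3000 bp, 24.5% from 3000 to 10000 bp and 45.9% at 10000 bp or more. Density per Mb was 25.3, 67.5, 68.2 and 58.1 in the same bins, so above 1000 bp it changed little.

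Signalling genes were taken list by list, and each count is to be read against the background of 10.9% and the length of the genes. In these lists and those below, a host is named by position alone. The start nearest the highest peak was another gene's in wit, mam, fng, arr, ptc, fz, NetB, Sema1a and fra, among others. In Dad, shn and aos, among others, it was the host's own. Of 12 BMP and activin genes with such sequence, 5 hosted a peak: Dad (1315), which encodes an inhibitory Smad, shn, and the receptor genes wit (737), tkv (392) and put (373). Their 22 peaks came to 277 per Mb, of which 13 were in shn and 3 in Dad. Of 18 receptor tyrosine kinase pathway genes, 6 were hosts, among them the inhibitor aos (1560), the ETS factor genes aop (897) and pnt (860) and the FGF ligand gene ths (652). Notch pathway genes numbered 5 of 13, led by the coactivator gene mam (1319), the ubiquitin ligase gene neur (754) and the glycosyltransferase gene fng (328), and the receptor gene N had 322. Of 15 Wnt and Hedgehog genes, 5 were hosts, with the coreceptor gene arr (692) and the receptor genes ptc (663), fz (445) and fz2 (273). Hippo pathway genes were 3 of 11: ex (612), kibra (467) and wts (366).

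Patterning and cell type genes differed in count. Hox genes hosted peaks in 3 of 8 cases, Abd-B (958), lab (494) and Antp (487), and segment polarity genes in 2 of 10, ptc and nkd (505). 0 of 7 gap and maternal genes and 0 of 3 pair-rule genes were hosts, but their sequence at this distance came to 0.0195 and 0.00645 Mb. The dorsoventral list had 1 of 10, sog (400), which encodes a BMP antagonist. Muscle genes had 6 of 15, with kirre (1025) and mbc (827) of myoblast fusion and the factor gene Mef2 (529). Axon guidance genes had 9 of 20, led by NetB (951), a netrin gene, Sema1a (744), a semaphorin gene, the netrin receptor gene fra (554) and sli (540), which encodes a midline repellent. Neural fate genes had 2 of 7, fru (394) and pros (336), ion channel genes 5 of 14, led by Ih (389), and actin cytoskeleton genes 6 of 15, led by the cofilin gene tsr (735) and the profilin gene chic (535).

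Among chromatin and hormone genes, ecdysone response genes had the highest share, 6 of 12 (50%, interval 21.1 to 78.9). They were the nuclear receptor genes Hr4 (1471), EcR (782), Eip75B (775), ftz-f1 (595), Hr3 (484) and Eip78C (293). These genes have a median of 12463 bp at this distance, against 611 bp over all genes, and their density was 85.4 peaks per Mb against 60.9. Over all coding genes with 10000 bp or more of such sequence, 45.9% were hosts, so 50% is near the share for that length. The list labelled trithorax had 5 of 17, trx, tna (901), kis (751), Mi-2 (482) and skd (412), with 15 peaks at 223 per Mb. Polycomb group genes had 1 of 15, ph-p (953). The insulator list had 2 of 9, Trl and jing (436), but jing was placed in that list wrongly, since it is no insulator gene. Circadian clock genes had 3 of 10, Pdp1 (705), dco (598) and vri (433). Cytoplasmic ribosomal protein genes had 0 of 6 with any such sequence. Density in the other lists was not always above the 60.9 per Mb of all coding genes: it was 54.7 for Hox genes, 42.3 for ion channel genes and 31.3 for the dorsoventral list, and 0 for the lists without a host. None of these shares or densities was tested.

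**Figure D4:**
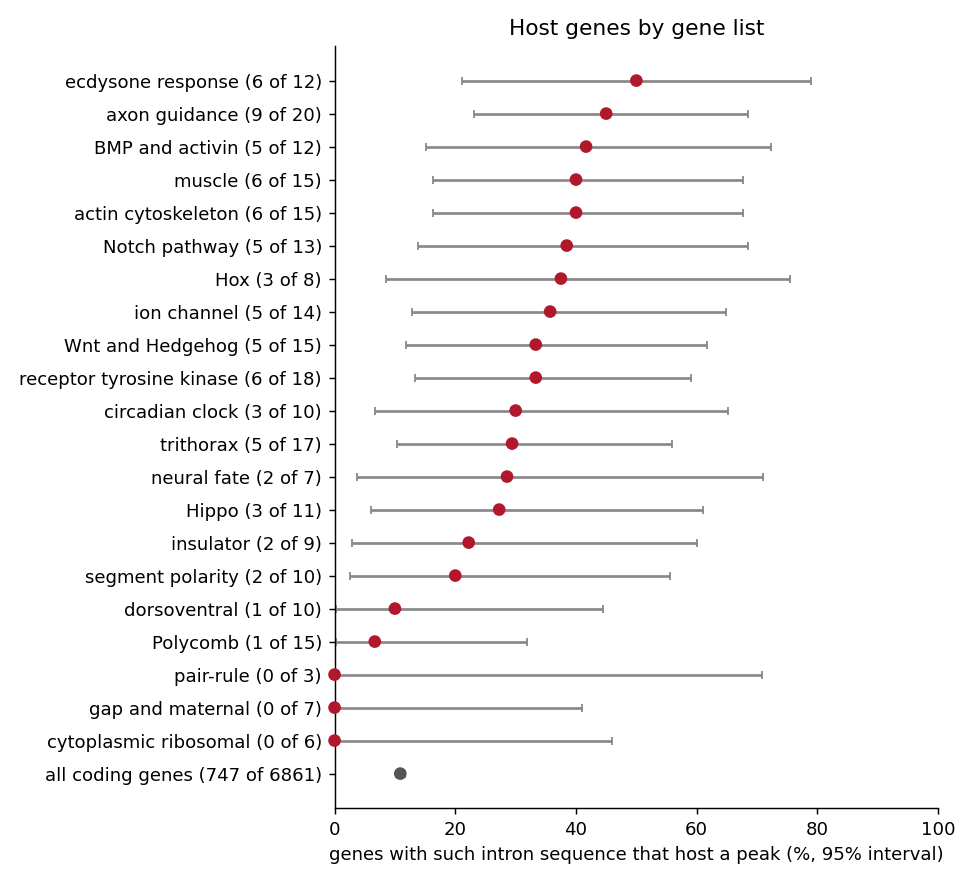
Share of genes with intronic sequence 1 to 5 kb from a start that host a peak (horizontal axis in percent, exact binomial 95% intervals), by gene list (numbers of hosts and of genes in parentheses), with all coding genes at the bottom. Ecdysone response genes are highest at 50%, all coding genes stand at 10.9%, and the intervals of the lists are wide. Shares are not adjusted for how much such sequence a gene has.

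Sequence at the summits was compared with a window of the same width centred 1000 bp to the right, with 201 bp in each window. Summits were richer in A and T, at 64.6% of bases, against 59.3% in the right flanks and 59.7% in the left flanks. Pooled regions of this intronic class outside the peaks had 59.9%, and 96949 windows of the class that met no peak had 59.8%. Introns beyond 5 kb had 64.6% at summits and promoters 64.3%, so the A and T content of summits was common to all of these classes. Within the intronic peaks it was 67.7% in the 20 bp just left of the summit and 55.6% to 58.7% in the bins more than 200 bp away.

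Of 24 motifs, 1 was more frequent at the intronic summits and 0 less frequent by exact McNemar tests with Benjamini-Hochberg adjustment over all 144 tests (24 motifs in 6 classes of position). The background over those tests was 7.64% higher and 3.47% lower, so a single motif of 24 is no more than the background. The TATAAA motif, which is the core of the TATA box of many promoters, was in 426 of 1228 summit windows (34.7%) and 276 flanks (22.5%), a difference of 12.2 percentage points (adjusted p = 3.77e-10, exact McNemar). Its letters in reverse order, a control of the same base composition, were in 52.0% of summits and 34.4% of flanks, a larger excess than that of the motif. The motif was in 24.3% of the class's windows without a peak. It was called in each of the alternatives run. It was not particular to the intronic peaks, since it also passed as higher in introns beyond 5 kb (37.2% of summits against 26.8% of flanks), in intergenic peaks (36.6% against 23.7%), at 501 to 1000 bp (36.3% against 25.5%) and at promoters (38.1% against 19.5%). In the 114 exonic peaks, with 26.3% against 20.2%, it did not pass (adjusted p = 0.729, exact). The other motifs searched on both strands were TATCGATA (the DNA replication-related element), GGTCACACT (Motif 1), Motif 6, Motif 7, CAGCTG (an E-box), TCAGTT (the initiator), AGNNGGCGC (CTCF), GCATACTTT (Su(Hw)), GAGAGAG (the Trl product), GCCATNTT (Pho), CAGGTAG (Zelda), CACATG (Twist and Snail), CACGTG (Clock), TAATTA (homeodomain), GGATTA (Bicoid), TGATAAG (Pannier and related factors), CCGGAA (ETS), TGANTCA (AP-1), TTCNNNGAA (STAT), ACCGGTT (Grainyhead), AACCGCA (Runt), the Mef2 motif and the ecdysone receptor element. Their differences between summits and flanks ran from -2.28 percentage points for Bicoid to 3.83 for the homeodomain motif. The DNA replication-related element was in 0.244% of summits and 0.570% of flanks, and Motif 1 in 0.0814% and 0.407%. The homeodomain motif was in 19.6% and 15.8% (adjusted p = 0.0809, exact) and passed when the flank lay to the left (19.6% against 14.3%, adjusted p = 0.00657, exact). Its letters in reverse order, of the same base composition, were in 17.6% of summits and 13.3% of right flanks, so they had an excess as well. The motif of the Trl product was in 2.69% and 4.72% (adjusted p = 0.0759, exact), and it passed as lower with 50 bp windows (0.651% against 3.01%, adjusted p = 0.000277, exact). Without replicate 2 or replicate 3 the homeodomain motif passed as well, which makes 2 motifs higher, and 1 motif passed as lower: ETS without replicate 1 or replicate 3, and Grainyhead without replicate 2. The tests treat peaks as separate, although windows of neighbouring peaks can overlap.

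Flanks did not all lie in comparable sequence. Of the right flanks, 800 were in the same intronic class, 155 at promoters, 131 at 501 to 1000 bp from a start and 76 in exons. Among the 800 members with a flank in the class, a choice made after seeing the data, TATAAA was in 34.1% of summits and 23% of flanks (adjusted p = 2.60e-05, exact). The homeodomain motif was in 18.6% of these summits and 17.4% of their flanks (adjusted p = 0.974, exact).

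Words of 8 bases, counted on both strands, were searched in the 614 odd-ranked intronic peaks, and the 10 with the largest excess over flanks were tested in the 614 even-ranked ones. Windows of neighbouring peaks can overlap across these sets, so search and test were not fully separate. Of the 10, 9 held only A and T, and 9 passed (90% of the words tested), led by AAATATTA in 53 summit windows against 18 flanks (adjusted p = 0.000293, exact McNemar). The number that passed was 5 without replicate 3 and 3 among peaks in the upper 50% by signal. Over all intronic peaks, AAATATTA was in 9.28% of summits and 3.26% of right flanks. Its letters in reverse order, of the same base composition, were in 5.62% and 3.18%. For each of the 10 words the reversed letters were more frequent at summits than in right flanks. The part of base composition in the excess of these words was not tested. Words with 3 or more G or C, a choice made after seeing the data, gave 10 of 10 past the threshold (100%), and 8 of the 10 hold CACTG or its complement CAGTG.

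Among these words, CACTGAGA was in 24 of 614 even-ranked summit windows and 5 flanks (adjusted p = 0.00137, exact McNemar), CACTGTGC in 24 and 5 (0.00137), TACACTGA in 22 and 4 (0.00137) and TGAGAGAA in 17 and 1 (0.00137). CACTGAAA was in 19 and 5 (0.0110), CACAGTGG in 22 and 6 (0.00744) and CCACTGTA in 20 and 7 (0.0213). Several of these words overlap each other, so they are not separate observations. Over all 1228 peaks, CACTGAGA was in 53 (4.32%) and CACTGTGC in 50 (4.07%), and 0 had both. Their letters in reverse order were in 0.163% and 0.326% of summits. The 5 bases CACTG alone were in 46.7% of summits, 27.9% of right flanks and 27.5% of the class's windows without a peak.

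Any of the 10 words was present in 253 of the intronic peaks (20.6%, interval 18.4 to 23), against 6.19% of their right flanks, 5.49% of windows of the class without a peak and 10.9% of pooled regions of the class outside the peaks. The share was 26.7% (21.8 to 32.0) in the 307 intronic peaks of highest signal, 20.8% and 17.9% in the next 2 groups of 307 and 16.9% (12.9 to 21.6) in the 307 lowest. It was 24.5% (21.5 to 27.6) in introns beyond 5 kb, 27.8% (24.6 to 31.1) in intergenic peaks, 20.03% (17.1 to 23.2) at 501 to 1000 bp and 14.3% (13 to 15.7) at promoters. The words were chosen in part of the intronic peaks, so their own share is a description, and differences between classes were not tested.

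The words lay beside the summits rather than on them. In bins of 20 bp, the intronic peaks had 12 and 23 matches to any of the 10 words next to the summit on the left and right. From 60 to 100 bp there were 77 and 62 on the left and 98 and 68 on the right. Beyond 200 bp the bins held 3 to 19 matches. The content of A and T had its highest value at the summit itself, where word matches were fewest in the central 200 bp.

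**Figure D5:**
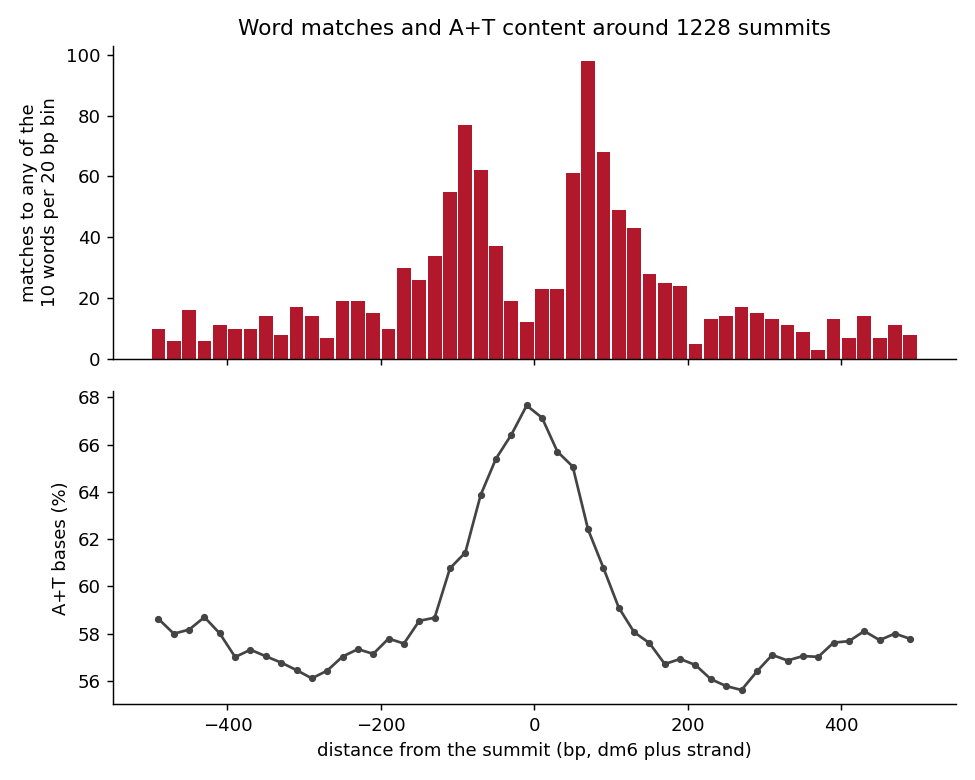
Matches to any of the 10 words with G or C per 20 bp bin (upper panel) and share of A and T bases (lower panel, in percent, axis from 55) by distance from the summit in bp, over 1228 intronic peaks. Word matches reach 77 on the left and 98 on the right at 60 to 100 bp, with 12 and 23 next to the summit, where A and T bases reach 67.7%.

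The strand of the words depended on the side of the summit, a pattern noticed in these data and described without a test. Between 30 and 130 bp from the summit, CACTGAGA had 65 matches in the intronic peaks, and 58 of them (89.2%, interval 79.1 to 95.6) read towards the summit. TACACTGA read towards it in 54 of 59 matches (91.5%) and CACTGAAA in 45 of 55 (81.8%). CACTGTGC had the opposite direction, since 63 of its 74 matches read away from the summit and 11 (14.9%, 7.66 to 25) towards it. The overlapping words CCACTGTG and CCACTGTA read towards it in 10 of 76 (13.2%) and 6 of 58 (10.3%). CACTG taken alone read both ways, with 458 of 875 matches (52.3%, 49.0 to 55.7) towards the summit. Within 30 bp of the summit CACTGAGA had 6 matches and CACTGTGC 5.

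Both longer words had the same directions in these other classes of position. CACTGAGA read towards the summit in 61 of 62 matches in introns beyond 5 kb, 79 of 82 in intergenic peaks and 40 of 48 at promoters. CACTGTGC did so in 7 of 44 matches in introns beyond 5 kb, 4 of 26 in intergenic peaks and 18 of 128 at promoters. CACTG taken alone did so in 441 of 652 matches at intergenic peaks (67.6%, 63.9 to 71.2), 354 of 588 in introns beyond 5 kb (60.2%, 56.1 to 64.2) and 796 of 1667 at promoters (47.8%, 45.3 to 50.2). The intervals of the intergenic peaks and the deeper introns lay above the 52.3% (49.0 to 55.7) of the intronic peaks, without a test of the difference. The mix of the words was not tested: intronic peaks had 65 matches of CACTGAGA and 74 of CACTGTGC, intergenic peaks 82 and 26, and promoters 48 and 128. Any of the 10 words lay in that range on the left of 148 intronic peaks and on the right of 184, and 41 (3.34%) had a match on both sides.

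Bases next to the words were also uneven. Counting from 1 at the start of CACTGAGA, A was the commonest base at positions 10, 11 and 12 over 57 matches in the intronic summit windows, in 78.9%, 87.7% and 86.0% of them, and G was at position 9 in 52.6%. Just before CACTGTGC, C was present in 44 of 57 matches (77.2%, interval 64.2 to 87.3). At other positions from 10 bases before to 10 after the words, the commonest base reached 61.4% at most. The matches in neighbouring peaks can be the same place counted more than once.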

How the data were processed

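Per the labels, chromatin from embryos 0 to 24 h old was sonicated to 200 to 800 bp. Per the texts deposited with the lists, regions were called for each of 3 replicates and for the pooled replicates, against 1 control alignment. Neither the aligner nor the peak caller is given in the sources used here, nor the IDR threshold. The authors deposited a signal value and a −log10 q for each region, in narrowPeak layout with dm6 coordinates. The summit offset, another deposited column, gave positions. Because reads were not counted per region, the depth of each sample is unknown. The number of regions limits the precision, and intervals cover counting error only. Signal values were used within 1 list.

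Peaks were placed on genome Release 6 and Ensembl annotation 115 (18277 genes, without transposable elements) in Python 3.11.15 with NumPy 2.4.6, pandas 2.3.3, SciPy 1.17.1 and matplotlib 3.10.9. Motifs and words were counted in 201 bp windows on both strands and tested with exact two-sided McNemar tests (threshold 0.05). Replicates were compared with exact sign-flip permutation tests. Functions were tested on simulated data. Members, the 21 gene lists, motifs and tests were chosen with earlier results of these data known. Genes named are hosts of the 20 highest members, the hosts with the most members, up to 4 hosts of each list by signal, and peaks next to the limits; further list hosts were named after their values were seen. In the lists, 3 symbols matched no annotated gene. Leaving out a replicate kept peaks that a high region of both others overlapped, since IDR was not rerun. Alternatives were the peaks in the upper 50% by signal, other starts, distances, windows, flanks, word lengths and overlaps.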

Additional observations from a re-analysis of the deposited data

How the results depend on the processing

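Of 71 recomputed values, 49 kept their direction and their side of the threshold or moved by less than the counting interval or 1.5 times; the cause of the other changes was not tested unless stated. The difference in recovery between intronic and other IDR peaks, 1.25 percentage points, was -0.325 when overlap had to cover 50% of both regions, and -0.0700 to 2.36 without a replicate. The count of motifs higher at summits was 2 with the left flank and 1 to 2 without a replicate, and that of motifs lower was 1 in the upper 50% of peaks by signal, with starts of coding genes or with 50 bp windows, 2 with the left flank and 1 to 1 without a replicate. Words past the threshold numbered 3 in the upper 50% by signal, 3 at 1000 to 3000 bp and 5 to 8 without a replicate, where fewer peaks were tested. The density ratio to deeper introns was 2.57 in the upper 50%, 2.45 at 1000 to 3000 bp and 2.23 to 2.41 without a replicate. The share with a peak at the nearest start was 19.4% in the upper 50%, 17.8% with starts bound within 250 bp and 21.5% to 23% without a replicate, where fewer peaks remained at starts as well. The same share was not recomputed for other classes. The words tested were not the same throughout: with the left flank 5 of the 10 were shared. Words of 3 or more G or C could share none, since none of the first 10 words held that many. With 1 group, no replicate numbers are shared between groups; the tests over replicates compare classes of peaks within each replicate. With 3 replicates no comparison between classes can reach a p under 0.25.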

Other observations

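Repeated sequence was looked at as well. Of the 1228 intronic summits, 0 lay in an annotated transposable element, although such elements make up 4.85% of the intronic sequence at this distance. The file of the genome marks 21.6% of bases in the summit windows as repeats or low complexity, against 17.8% in the right flanks. How reads from repeats were handled is not given in the sources used here, and its part in these values was not tested.

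Words in which TG comes just before CACTG had a direction too. TGCACTGA read towards the summit in 46 of 50 matches between 30 and 130 bp from intronic summits (92%, interval 80.8 to 97.8), in 70 of 75 at intergenic peaks and in 39 of 47 at promoters. GTGCACTG, which shares 7 bases with it, did so in 35 of 47 (74.5%, 59.7 to 86.1) at intronic peaks and 38 of 63 (60.3%) at promoters. These values are descriptions of a pattern noticed in the same data.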
